A study of Mus musculus with 6 samples.

Results

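Levels of 10 genes that hypoxia-inducible factor 1 (HIF-1) is known to switch on outside the enzymatic steps of glycolysis were followed in muscle of mice labelled wild type or knockout for SIRT6. The genes were Vegfa, Adm, Pfkfb3, Pfkfb4, Slc16a3, Car9, Kdm3a, Ndrg1, Ddit4 and Ankrd37. They were taken by name, as every probe set whose platform gene symbol was 1 of the 10, which gave 17 of the 45037 probe sets tested and 10 of 18193 named genes. Each probe set pools several short probes for 1 transcript. Ndrg1 had 5 probe sets, Vegfa, Adm and Pfkfb3 had 2 each, and the other 6 genes had 1 each.

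The wild type group (WT) was 3 mice, and the knockout group (KO) was 3 mice labelled SIRT6KO. All 6 were of the 129SvJ strain background, and RNA from each animal's muscle went onto its own Affymetrix whole-genome mouse array. No agent is named for either group. Which muscle was taken, the age and sex of the mice, and whether the gene was deleted in the whole body or only in some cells could not be taken from the labels. SIRT6 is a chromatin deacylase that has been described as a co-repressor of HIF-1 at glucose metabolism genes. The comparison asks whether other HIF-1 targets read differently in the knockout muscle.

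HIF-1 is a pair of proteins, an alpha subunit destroyed in the presence of oxygen and a stable beta subunit. Prolyl hydroxylases of the Egln family use oxygen to mark the alpha subunit, and the Vhl protein then passes it to the proteasome. When oxygen is short the pair binds the hypoxia response element, whose core reads ACGTG or GCGTG, and raises genes for oxygen supply, anaerobic energy, acid removal and reduced growth. In working muscle these genes also answer to hormones, fasting and contraction. The name of the set needs 1 remark: Pfkfb3, Pfkfb4 and Slc16a3 encode no step of glycolysis, but they set its rate or carry its end product.

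The bases just upstream of the members' start sites are shown because they carry the letters that HIF-1 is known to bind. The RefSeq promoter table (GRCm38.p6) held 9 of the 10 members, Ndrg1 being the one without an entry. The 250 bases before the most upstream start in that table were searched for both cores on both strands, so a match can also be printed as its reverse complement, and overlapping matches were each counted. ACGTG was found in 5 of the 9 members and in 16.5% of all 27025 genes in the table, GCGTG in 5 of the 9 and in 28.3%. At least 1 of them was found in 8 of the 9 members, all but Vegfa, and in 38.6% of genes. A further Vegfa start, downstream of the one searched, had GCGTG at 218 and ACGTG at 211 bases before it. Ddit4 and Adm are printed in full to show where their matches lie in the window, and the others as short stretches around a match. For Kdm3a, Pfkfb3, Pfkfb4, Slc16a3 and Ankrd37 some or all of the window lay inside the gene's RefSeq span, so another transcript of the gene begins further upstream. Each sequence runs 5′ to 3′ on the gene's own strand, and the capitals mark the matches.
Ddit4, chr10:59951771-59952020, minus strand: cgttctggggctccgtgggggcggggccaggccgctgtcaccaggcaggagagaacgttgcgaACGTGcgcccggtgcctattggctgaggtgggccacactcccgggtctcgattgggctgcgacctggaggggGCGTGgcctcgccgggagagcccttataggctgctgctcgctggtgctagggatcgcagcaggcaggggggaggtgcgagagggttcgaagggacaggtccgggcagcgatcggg
Adm, chr7:110627407-110627656, plus strand: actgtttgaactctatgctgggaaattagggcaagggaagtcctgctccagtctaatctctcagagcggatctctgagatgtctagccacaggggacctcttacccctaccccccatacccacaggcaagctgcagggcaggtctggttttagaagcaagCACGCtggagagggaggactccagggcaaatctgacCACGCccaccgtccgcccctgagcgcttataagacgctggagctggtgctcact
Kdm3a, chr6:71632928-71632956, minus strand: ccgggaggctgtGCGTGtcttgtgagaga
Slc16a3, chr11:120949035-120949062, plus strand: cggtgACGTGcgcgggggACGTGccgcg
Pfkfb3, chr2:11553973-11554001, minus strand: ctccgcgccgtgACGTGccaagctgtgac
Pfkfb4, chr9:108991773-108991801, plus strand: ttgacggatgggGCGTGcttagtccaaaa
Car9, chr4:43506996-43507024, plus strand: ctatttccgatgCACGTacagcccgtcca
Ankrd37, chr8:45999988-46000015, minus strand: cttcactgcgCACGCGTGctgcggccgc
A match is a description of the letters, and no binding was measured. In Slc16a3 both ACGTG matches lay close together, starting 27 and 14 bases before the start. Ddit4 held ACGTG at 187 and GCGTG at 115 bases before its start, and the single GCGTG of Kdm3a began at 27.

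The array medians lay between 10.8 and 15 intensity units, and between 51.71% and 60.34% of probe sets were below 16, the offset added before taking log2. Spiked hybridization controls of WT replicate 1 were 1.99 times those of KO replicate 3, against at most 1.04 times on the other arrays. KO replicate 3 stood apart: its correlation with the other arrays across probe sets was 0.910 to 0.951, against 0.942 to 0.967 among the other 5. Acta1, the actin of skeletal muscle, read 9375.7 to 15079.8, so the labelled tissue was borne out. Xist (probe set 1427262_at) read 0.7 to 3.4 in WT and 221.7 to 250.9 in KO, and Eif2s3y, a Y-linked gene (probe set 1417210_at), 44.5 to 77.1 and 1.1 to 4.1. Genotype and sex therefore cannot be told apart here. Sirt6 (probe set 1429631_at) read 19.9 ± 4.24 and 18.2 ± 4.45 (SD, n = 3 each), and where its probes lie relative to the deletion is not known here. Gapdh 3′ over 5′ ratios, a sign of RNA quality, were 0.827 to 0.835 in WT and 0.811 to 0.846 in KO.

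None of the 17 probe sets passed limma's test at an adjusted p of 0.05, where the adjustment runs over all probe sets. At an unadjusted p under 0.05 there were also 0 of 17. Over all probe sets 0.00888% passed the first rule, and 8.56% the second, 3.57% higher in KO and 4.99% lower. Over all genes, each read by its brightest probe set, 0.0055% and 9.83% did, the latter 3.54% higher and 6.29% lower, against 0 of the 10 members by either rule. The lowest adjusted p among the members was 0.595. On average 6 of the 10 genes were higher and 4 lower in KO, against 46.8% of all genes higher, when each gene was read by its probe set with the highest mean. The median difference of the 10 was 0.15 on the log2(value + 16) scale, KO minus WT, and that of all genes -0.02. With arrays scaled to the hybridization controls these became 0.30 and 0.13, and 7 of 10 members were higher against 69.3% of genes. Groups did not overlap in 1 of 17 probe sets, a Vegfa probe set that was lower in KO, against 7.29% of all probe sets that lay that way, 5.02% the opposite way and 12.3% in either. The fold changes and the counts of higher and lower genes below are on the log2(value + 16) scale, which understates the change of dim genes.

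**Figure D1:**
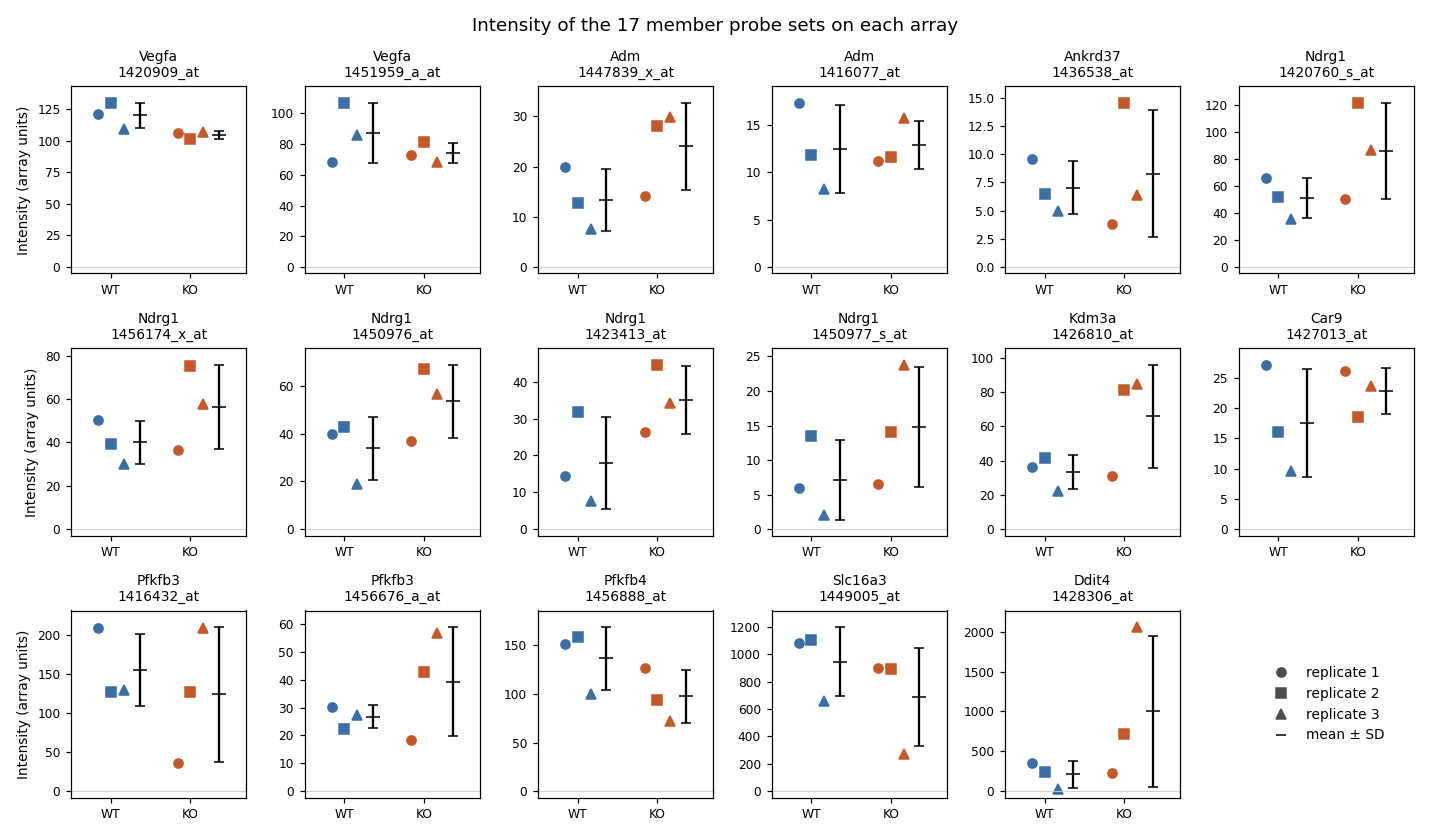
Intensity (array units, linear axes) of each of the 17 member probe sets on the 3 WT (blue) and 3 KO (orange) arrays, with a marker shape for each replicate and the mean ± SD in black. Ddit4 spans 28 to 2058.9, and KO replicate 1 lies among the WT arrays for Ddit4, Kdm3a and all 5 Ndrg1 probe sets.

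The member with the widest range was Ddit4, whose protein REDD1 holds back the growth kinase mTORC1 and which hypoxia, glucocorticoids and energy stress are all known to induce. Its probe set 1428306_at read 359.7, 242.9 and 28 in WT replicates 1, 2 and 3, and 229.7, 713.7 and 2058.9 in KO replicates 1, 2 and 3. KO replicates 2 and 3 were above every WT array, KO replicate 1 lay within the WT range, and WT replicate 3 was far below the other WT arrays. The means were 210.2 ± 168 and 1001 ± 948 (SD, n = 3 each, WT first here and below), or 4.43-fold (95% interval 0.841 to 23.3, adjusted p = 0.611). The size rested on single arrays: the fold was 2.31 without WT replicate 3, 2.61 without KO replicate 3, 6.74 without WT replicate 1 and 7.58 without KO replicate 1. Its adjusted p ranged from 0.211 to 0.907 over all the settings tried.

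Genes of the same growth-control branch were read from a list of 13, of which 12 were measured: 10 were higher and 2 lower on average, 0 passed in either direction, and the median log2 difference was 0.33. Eif4ebp1, the translation repressor that mTORC1 inactivates, read 208 ± 62.3 and 868 ± 643. Sesn1, a stress-induced inhibitor of the same kinase, read 119 ± 38.9 and 733 ± 652. Sesn3, its relative, read 96.3 ± 20.6 and 44.6 ± 18.7, the other way. The Ddit4 relative Ddit4l read 746 ± 191 and 758 ± 297, and it counts as the other lower gene because its log2 difference was -0.04.

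Known glucocorticoid-induced genes, listed together with the glucocorticoid receptor Nr3c1, were set beside Ddit4, which belongs to that response as well. Of the 14 measured, 12 were higher and 2 lower in KO, with 0 passing and a median log2 difference of 0.99. Nr3c1 counts among the higher genes although its log2 difference was 0.00 and its means were 332 ± 62.4 and 328 ± 12.4. The median of the list lay 0.51, 0.20 and -0.75 from the WT mean in WT replicates 1, 2 and 3, and 0.09, 1.02 and 1.76 in KO replicates 1, 2 and 3, on the log2 scale. Ddit4 lay at 1.21, 0.67 and -1.88 in WT and at 0.60, 2.17 and 3.68 in KO, so the 6 arrays fell in the same order for both. That order was not particular to this list. The median of the 8 histone demethylases described below had it too, at 0.23, -0.04 and -0.24 in WT and -0.05, 0.35 and 0.46 in KO. Cebpd, a transcription factor of the glucocorticoid response, read 123 ± 77.9 and 946 ± 950.4, and Zbtb16 348 ± 158 and 1042 ± 479.7. The 2 lower genes were Sgk1, at 443 ± 304 and 212 ± 76.1, and Dusp1, at 400.5 ± 138 and 308 ± 18.6. The list of ATF4 and stress-induced genes, another response to which Ddit4 belongs, had 6 of 9 higher, or 8 of 9 with hybridization control scaling, 0 passing and a median of 0.09. Its Atf4 read 275 ± 53 and 589 ± 241, while its Psat1 read 23 ± 6.25 and 14.6 ± 7.98, the other way. What part these responses have in the Ddit4 values was not tested.

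Ndrg1, a stress-induced cytoplasmic protein also involved in myelin upkeep, had 5 probe sets, and all 5 were higher on average in KO, by 1.28-fold to 1.55-fold. Probe set 1420760_s_at read 65.8, 51.9 and 35.8 in WT and 50.4, 121.6 and 86.7 in KO. Its means were 51.2 ± 15 and 86.2 ± 35.6 (n = 3 each), 1.48-fold with an interval of 0.909 to 2.42 (adjusted p = 0.647). Probe set 1423413_at read 14.5, 31.9 and 7.6 in WT and 26.3, 44.6 and 34.1 in KO, 1.55-fold with an interval of 0.98 to 2.45 (adjusted p = 0.595). On each of the 5 probe sets KO replicates 2 and 3 were above all WT arrays and KO replicate 1 lay within the WT range. The 5 share a transcript and are not independent evidence. Probe set 1450977_s_at averaged below the offset, and the suffixes _s_at and _x_at mark probes that can also bind other transcripts. In the NDRG family, Ndrg2, a differentiation-linked relative abundant in muscle, read 1125.7, 1185.2 and 846.1 in WT and 1379, 2146.8 and 2048.7 in KO, 1.74-fold (interval 1.21 to 2.5), with no overlap. Ndrg3 read 54 ± 1.88 and 50.6 ± 9.59, and Ndrg4 30.8 ± 10 and 16.6 ± 2.37. Of these 3, 1 was higher and 2 lower, or 2 and 1 with hybridization control scaling, and 0 passed the adjusted test.

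Kdm3a, a demethylase that removes the repressive mark of histone H3 lysine 9 and itself needs oxygen, read 36.5, 41.4 and 22.4 in WT and 31.1, 81.6 and 85 in KO at its single probe set. Here too KO replicates 2 and 3 were above every WT array and KO replicate 1 among them. The means were 33.4 ± 9.86 and 65.9 ± 30.2 (n = 3 each), 1.59-fold with an interval of 0.929 to 2.72 (adjusted p = 0.622). Without KO replicate 3 the fold was 1.39, without KO replicate 1 it was 2.04. Of 8 related or HIF-linked histone demethylases 6 were higher and 2 lower, or 8 and 0 with hybridization control scaling, with 0 passing and a median log2 difference of 0.30. Kdm3b, the closest relative, read 89.3 ± 17.2 and 100.2 ± 18.3. The lowest p in that list was that of Kdm5c, an X-linked gene, at 35.8 ± 5.5 and 52 ± 6.7.

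**Figure D2:**
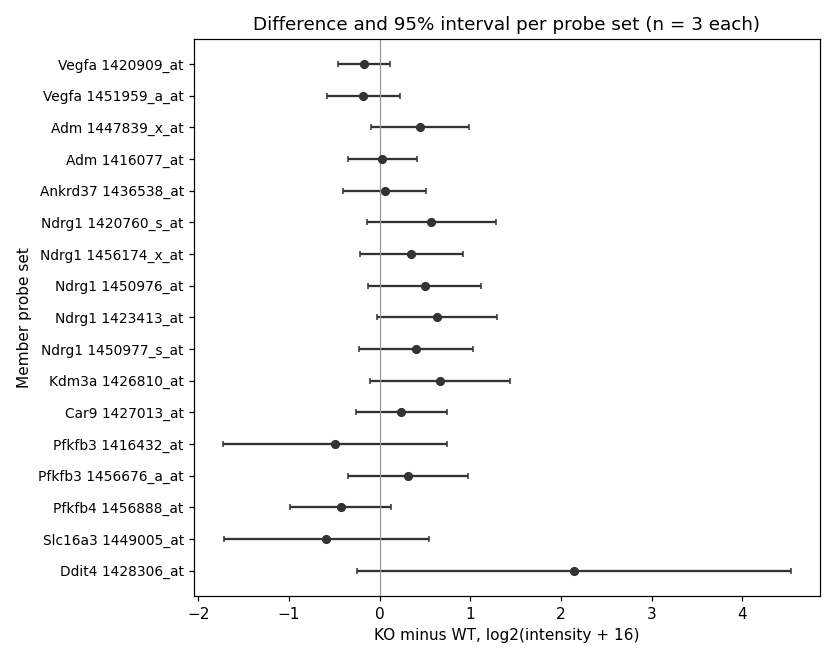
Difference KO minus WT on the log2(intensity + 16) scale for each member probe set, with limma's 95% interval (n = 3 each). All 17 intervals include 0, and that of Ddit4 runs from -0.25 to 4.54.

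The secreted members were Vegfa, the growth factor that draws capillaries into oxygen-poor tissue, and Adm, whose peptide adrenomedullin widens vessels. Vegfa probe set 1420909_at read 121.1, 129.8 and 109.6 in WT and 105.9, 101.2 and 106.7 in KO. All KO arrays were below all WT arrays, by a small margin. The means were 120.2 ± 10.1 and 105 ± 2.97 (n = 3 each), 1.13-fold lower, with an interval of 0.729 to 1.08 for KO over WT (adjusted p = 0.734). Probe set 1451959_a_at read 68.3, 107.1 and 86.3 in WT and 72.9, 81.4 and 68.7 in KO, with overlap, and also averaged 1.13-fold lower (adjusted p = 0.824). Scaled to the hybridization controls, both probe sets turned to slightly higher in KO, at log2 0.11 and 0.08, which is 0.00 and -0.03 relative to the median of all probe sets under that scaling.

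Around Vegfa, 7 of 9 measured family members and receptors were lower in KO and 2 higher, with 0 passing and a median log2 difference of -0.26, and with scaling to the hybridization controls 5 were lower and 4 higher. Nrp1, a VEGF co-receptor, read 181.4, 145.6 and 123.4 in WT and 111.5, 107.5 and 86 in KO, and Kdr, the main VEGF receptor of endothelium, 117 ± 17.6 and 89.5 ± 40. Vegfb read 372 ± 76.1 and 334 ± 53.2. Of 8 endothelial markers, Kdr among them, 7 were higher on average and 0 passed; the sum of the 8 was 541 to 689 in WT and 614 to 929.9 in KO, and no marker was at 0. In bulk muscle, fewer cells of a type and less RNA per cell cannot be told apart. Adipocyte markers were lower in 6 of 6, with sums of 3578 to 6729 in WT and 2434 to 4080.5 in KO. Among them Ucp1, a gene of brown fat, read 877.2, 570.3 and 586.1 in WT and 129.9, 5.9 and 2.3 in KO. The samples thus held RNA of cells other than muscle fibres, in amounts that were not measured. Fibroblast markers were lower in 5 of 6, with sums of 6109 to 10427 and 3071 to 6378, and 0 of either list passed. The adipocyte and fibroblast medians were highest in WT replicate 1, the array with the brightest hybridization controls. They lay 0.42 and 0.32 above the WT mean there on the log2 scale. Neither list was counted with hybridization control scaling, so how far these counts rest on that array is not known. The part of these cell types in the Vegfa values was not tested.

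Adm had probe sets that differed. Probe set 1447839_x_at read 19.9, 12.8 and 7.5 in WT and 14.1, 28.2 and 29.9 in KO, 1.36-fold higher with an interval of 0.932 to 1.98 (adjusted p = 0.644). Probe set 1416077_at read 17.4, 11.8 and 8.2 in WT and 11.2, 11.6 and 15.8 in KO, 1.02-fold (95% interval 0.785 to 1.33, adjusted p = 0.985). KO replicates 2 and 3 were thus above all WT arrays on the first and within the WT range on the second, whose mean was below the offset. Both are dim, and the first carries the suffix of probes open to cross-hybridization. The receptor parts Calcrl and Ramp2 read 26.2 ± 7.3 and 36.1 ± 19.7, and 167 ± 37.5 and 184 ± 36.4. In that family 3 of 6 were higher, or 5 of 6 with hybridization control scaling, 0 passed and the median log2 difference was 0.06.

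Pfkfb3 and Pfkfb4 make and break the sugar bisphosphate that switches phosphofructokinase on. Pfkfb3 probe set 1416432_at read 209.1, 127.5 and 129.5 in WT and 36.1, 127.6 and 209.1 in KO. KO replicate 1 was far below the rest, while the other KO arrays spanned the same range as WT. The means were 155 ± 46.5 and 124 ± 86.5 (n = 3 each), 0.71-fold (95% interval 0.302 to 1.67, adjusted p = 0.845). Without KO replicate 1 the fold turned to 1.07. Probe set 1456676_a_at read 30.3, 22.2 and 27.5 in WT and 18.2, 42.9 and 56.9 in KO, a fold of 1.24 (interval 0.783 to 1.97, adjusted p = 0.811). KO replicate 1 was the lowest array on both probe sets, but on this one KO replicates 2 and 3 were above every WT array, so the mean differences of the pair had opposite signs.

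Pfkfb4 read 151.1, 159 and 99.9 in WT and 126.9, 93.5 and 72.6 in KO. KO replicates 2 and 3 were below every WT array and KO replicate 1 within the WT range. The means were 137 ± 32.1 and 97.7 ± 27.4 (n = 3 each), 0.742-fold (95% interval 0.503 to 1.1, adjusted p = 0.661). Of 7 other genes at this step of glycolysis 5 were lower and 2 higher, with 0 passing and a median log2 difference of -0.09, and scaled to the hybridization controls 6 were higher and 1 lower. Pfkl, the liver-type phosphofructokinase, read 225.6, 116.6 and 142 in WT and 51.2, 60.3 and 38.5 in KO, without overlap, and Fbp2, the muscle enzyme of the reverse step, 81.6 ± 31.3 and 198 ± 110.4. Pfkm, the muscle-type phosphofructokinase and much brighter than Pfkl, read 3629.5 ± 551 and 3853 ± 423, or 1.07-fold. Pfkfb2 read 25 ± 3.41 and 21.4 ± 5.94.

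Slc16a3 encodes MCT4, which carries lactate out of fast muscle fibres. It read 1079.5, 1106.3 and 656.7 in WT and 898.1, 893.9 and 274.2 in KO. KO replicate 3 was the low array, and the other KO arrays lay within the WT range. The means were 948 ± 252 and 689 ± 359 (n = 3 each), 0.663-fold (95% interval 0.304 to 1.45, adjusted p = 0.779). Without KO replicate 3 the fold was 0.972. Slc16a1, the transporter that favours lactate uptake, read 220.5, 138.9 and 120 in WT and 73.4, 104.4 and 91.3 in KO, without overlap. Bsg, the chaperone both transporters need, read 1233 ± 184 and 1204 ± 167. Ldha, which makes the lactate, read 6371 ± 1306 and 3685 ± 1663 and was lowest in KO replicate 3, at 1934. In this list 6 of 7 were lower and 1 higher, with 0 passing and a median log2 difference of -0.08, and scaled to the hybridization controls 4 of the 7 were higher.

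Car9, a membrane carbonic anhydrase that helps cells shed acid under hypoxia, read 27.2, 16 and 9.6 in WT and 26.1, 18.6 and 23.7 in KO. The KO arrays lay within the WT range, and the fold was 1.18 (95% interval 0.834 to 1.66, adjusted p = 0.808). Of 13 measured carbonic anhydrases other than Car9 10 were lower and 3 higher, with 0 passing and a median log2 difference of -0.06, and under hybridization control scaling 8 were higher and 5 lower. Car3, abundant in slow muscle and fat, read 6209.6, 2637 and 2668.6 in WT and 1778.5, 2530.8 and 1115 in KO. Car4, an anhydrase of capillary and muscle membranes, read 55.1, 61.4 and 22.8 in WT and 63.9, 133 and 131.5 in KO. The groups did not overlap in either. Ankrd37, a small ankyrin-repeat protein widely used as a hypoxia marker, read 9.6, 6.5 and 5 in WT and 3.8, 14.6 and 6.4 in KO. All its readings were below the offset, the fold was 1.04 (95% interval 0.759 to 1.42, adjusted p = 0.971), and a difference was not detectable at this signal.

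**Figure D3:**
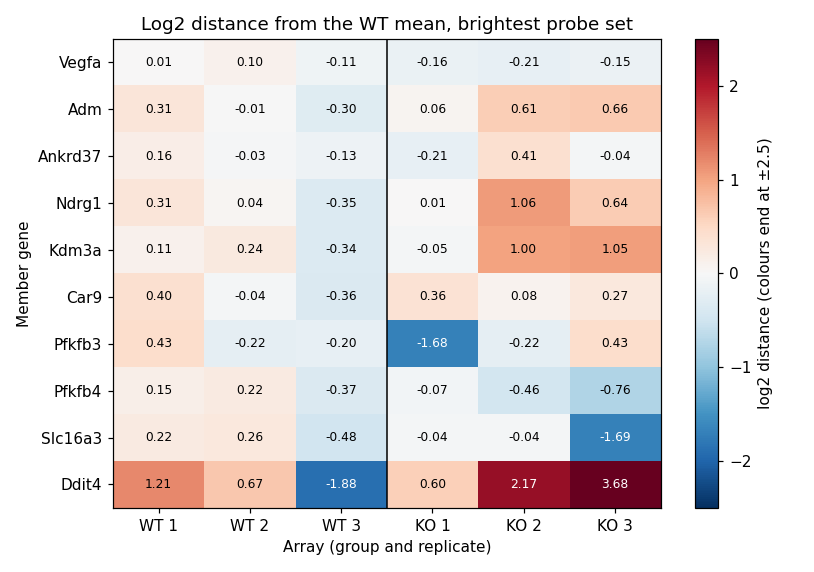
Log2 distance of each member gene (rows, read by its probe set with the highest mean) from the WT mean on each array (columns, WT then KO replicates 1 to 3). KO replicates 2 and 3 are both above the WT mean for Adm, Ndrg1, Kdm3a, Car9 and Ddit4 and both below it for Vegfa, Pfkfb4 and Slc16a3, and WT replicate 3 is below it for all 10 genes.

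Across the 10 members the arrays of each group did not read alike. All 10 lay above the WT mean in WT replicate 1 and 0 of 10 in WT replicate 3. In KO replicates 1, 2 and 3 the members above it numbered 4, 6 and 6. The median distance of the members was 0.27, 0.07 and -0.35 in WT replicates 1, 2 and 3 and -0.04, 0.25 and 0.35 in KO replicates 1, 2 and 3. Over all genes it was 0.15, 0.00 and -0.14 in WT and -0.10, 0.03 and -0.01 in KO, so the WT arrays had the same order in overall brightness. KO replicates 2 and 3 were higher than every WT array for Adm (1447839_x_at), Ndrg1, Kdm3a, Ddit4 and Pfkfb3 probe set 1456676_a_at. The same 2 arrays were lower than every WT array for Pfkfb4 and for Vegfa probe set 1420909_at. This reading sets KO replicate 1 aside. The share of all probe sets that meet it was not counted, so it cannot be called particular to the members. Trim63, a ubiquitin ligase of muscle wasting that was named after its values were seen, read 285.7 to 468.2 in WT and 512.1, 1825.4 and 6884.7 in KO replicates 1, 2 and 3. Its part in the members' values was not tested.

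The genes whose log2 values ran most like those of Ddit4 over the 6 arrays, among 9094 genes above the median level, were Ylpm1 (Pearson r = 0.999), Atg2b (0.996), Cdc27 (0.995), Eif3c (0.995) and Rraga (0.994). Ylpm1 read 53, 45.8 and 27.6 in WT and 47.7, 63.7 and 82.1 in KO. For Vegfa they were Hdgfl1 (0.989), Ntm (0.982), Magt1 (0.977), Rnpep (0.974) and Kcnc1 (0.970). These likenesses are descriptions of 6 arrays that share overall brightness, picked as the highest of many, and carry no test.

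Other HIF-1 genes went both ways, as the members did. Of 13 measured HIF subunits and oxygen-sensing genes 8 were higher and 5 lower in KO, or 12 and 1 with scaling to the hybridization controls, with 0 passing and a median log2 difference of 0.18. Hif1a, the oxygen-labile subunit, read 93.1, 100 and 98.4 in WT and 34.7, 129.6 and 98.5 in KO. Epas1, its relative HIF-2 alpha, read 291 ± 82.8 and 357 ± 70.7. Egln3, a hydroxylase that HIF-1 itself induces, read 86.2, 91.1 and 88.8 in WT and 149.8, 741.9 and 850.1 in KO, 4.56-fold with an interval of 1.7 to 12.2. Hif3a, a family member that can oppose HIF-1, read 41.5 ± 12.5 and 74 ± 22.9.

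Of 28 HIF-1 targets outside glycolysis other than the members 14 were higher and 14 lower, or 18 and 10 with that scaling. Among them 0 passed and the median log2 difference was 0.00. The 28 are not all new genes: Egln1, Egln3, Flt1 and Car12 were also counted in lists above. All KO arrays were above all WT arrays in 2 of the 28, Egln3 and Mxi1, and below in 7. Over all genes these shares were 4.51% and 8.34%, or 12.9% in either direction. Mxi1, which opposes Myc, read 76.2, 109.9 and 58.8 in WT and 122.5, 241 and 249.7 in KO, and P4ha1, a collagen prolyl hydroxylase, 84.8, 74.8 and 58 in WT and 29.3, 29 and 17.9 in KO. The groups did not overlap in either gene. Bnip3, a mitochondrial autophagy receptor outside the 4 lowest p-values and named after its values were seen, read 549.8, 459 and 383.5 in WT and 494.8, 2276.4 and 4694.5 in KO. Tfrc, named in the same way, went lower, at 812.9, 686.8 and 611.4 in WT and 473.7, 156.1 and 47.2 in KO. Bhlhe41, within the 4 lowest p-values, was also lower, at 25 ± 2.36 and 14.7 ± 1.39. Of 14 glycolytic targets 13 were lower and 1 higher, with 0 passing and a median log2 difference of -0.18, and with scaling to the hybridization controls 5 were lower and 9 higher. Without that scaling the 1 higher gene was Slc2a1, the basal glucose transporter, at 18.8, 30.3 and 12.4 in WT and 26.5, 38.8 and 84.5 in KO. Differences between lists were not tested.

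**Figure D4:**
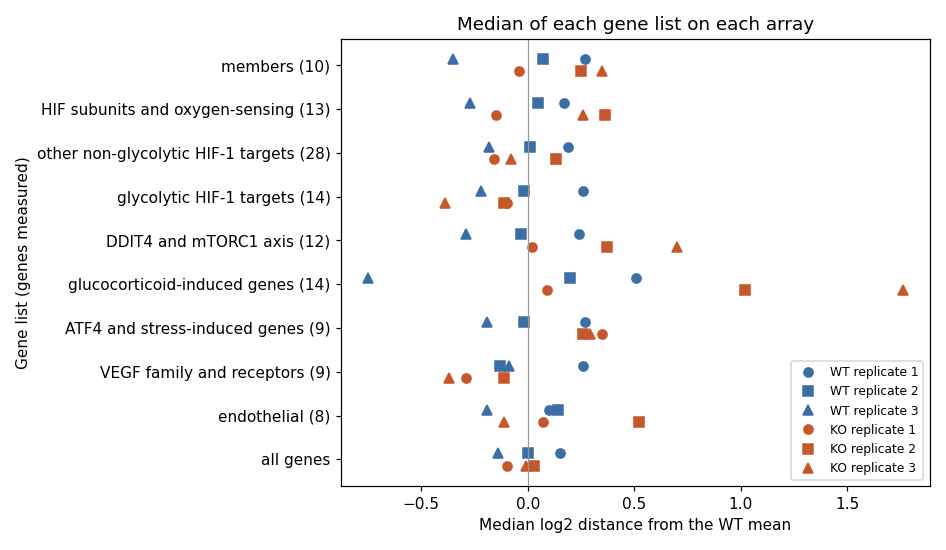
Median log2 distance from the WT mean (horizontal axis) of 8 pathway and marker lists, the members and all genes (rows, genes measured in brackets) on each WT (blue) and KO (orange) array, with a marker shape for each replicate. The glucocorticoid-induced genes spread most, from -0.75 in WT replicate 3 to 1.76 in KO replicate 3, while all genes together stay between -0.14 and 0.15.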

How the data were processed

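Muscle RNA from 3 WT and 3 KO mice was measured on 1 array each. The deposited intensity values are 1 number per probe set and array, linear, to 1 decimal. Per the labels, TriPure was used for the RNA and biotin for the label; the summarization software and scaling: not given in the sources used here. Values were taken as log2(value + 16) without further normalization. After removing 64 control probe sets, limma 3.58.1 under R 4.3.3 (lmFit, then eBayes, two-sided) was run on the other 45037, and p-values were adjusted over all by Benjamini-Hochberg, with 0.05 as the threshold. The test was checked on simulated data. The labels give no batch, and the number of arrays limits the precision.

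Of the probe sets 34945 had 1 gene symbol in the platform annotation, 932 had several and 9160 had none, and 34741 matched RefSeq. A list gene was read by its probe set with the highest mean. Named genes were all members, Sirt6, up to 4 genes of each list with the lowest p, fixed relatives, and the genes most like Ddit4 and Vegfa. Outside this rule, and after their values were seen, Acta1, Xist, Eif2s3y, Trim63, Bnip3, Tfrc, Sgk1, Dusp1, Nr3c1 and Pfkm were named. The members and lists were chosen with earlier results of these data known. Alternatives were offsets of 1 and 64, quantile normalization, median centring, scaling to hybridization controls, a level filter, a trended and robust variance, the replicate block, each array left out, and a threshold of 0.01. The labels give no pairing of same-numbered samples, and the main fit treated the samples as unpaired. Deposited files carried 0 unused columns.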

Additional observations from a re-analysis of the deposited data

How the results depend on the processing

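The count of member probe sets past the threshold was 0 under every alternative run, with lowest adjusted p-values from 0.188 to 0.862, and the median log2 difference of the 10 members stayed between 0.02 and 0.30. Over all probe sets the count of 4 became 79 when tested in the brighter part of the probe sets (level above the median), 15 with a trended and robust variance, 11 with median centring, 9 with quantile normalization, 3 with hybridization control scaling and with an offset of 1, 1 with an offset of 64 and 2 at a threshold of 0.01. It ran from 1 to 6 with each array left out: 1 without KO replicate 2, 1 without WT replicate 1, 1 without WT replicate 2, and 2 without KO replicate 3. The replicate block gave 0 over all probe sets and 0 among the members, with a lowest member adjusted p of 0.64. Deviations of same-numbered samples correlated at -0.0055, 0.0207 and -0.0401 over 22518 probe sets, so no pairing by number showed in these values. Such correlations cannot tell whether the animals were related or handled together. Of 253 single results under an alternative 246 kept their direction and side, and 12 of 17 probe sets never turned. Both Vegfa probe sets turned to 0.11 (1420909_at) and 0.08 (1451959_a_at) with hybridization control scaling, which shifted the median of all probe sets by 0.11. Under that scaling every member probe set moved up. The lower ones shrank: Pfkfb4 from -0.43 to -0.14, Slc16a3 from -0.59 to -0.27 and Pfkfb3 1416432_at from -0.49 to -0.20. Ddit4 rose from 2.15 to 2.48. With each array left out, Adm 1416077_at ran from -0.08 (without WT replicate 3; -0.04 without KO replicate 3) to 0.15, Ankrd37 from -0.12 (without KO replicate 2; -0.01 without WT replicate 3) to 0.19, and Pfkfb3 1416432_at from -0.95 to 0.10 (without KO replicate 1). The cause was not tested. With the level filter Ankrd37 and Ndrg1 1450977_s_at had no value. Signal limits Adm, Ankrd37 and Car9, which lie near or below the offset.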
